A study of Mus musculus with 8 samples.

Results

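The enzymes of the tricarboxylic acid (TCA) cycle described here are the products of 9 mouse genes, Cs, Idh2, Idh3a, Idh3g, Ogdh, Suclg1, Sdha, Fh1 and Mdh2. They were found as every probe set to which the platform annotation gives exactly 1 gene symbol from this list, which yielded 16 probe sets for the 9 genes, out of 20380 probe sets with 1 symbol and 22690 on the array. The rule reads the annotation alone and no signal. Cs and Idh3a had 3 probe sets each, Idh3g, Sdha and Mdh2 had 2 each, and the other 4 genes had 1 each.

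RNA came from the diaphragm, the muscle that drives breathing, taken at 8 weeks of age. The dystrophic group was 4 pools from dy/dy mice, in which deficiency of a laminin chain leads to muscular dystrophy. The normal group was 4 pools from control mice for that line. Each pool joined muscle of 3 animals and was measured on 1 Affymetrix array, so each group covered 12 mice and the pool was the replicate. The labels give neither the strain background, the sex nor the genotype of the controls beyond the word control, and a whole-muscle pool holds fibres together with interstitial cells.

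The TCA cycle runs in the mitochondrial matrix, where it oxidises the acetyl group of acetyl-CoA to carbon dioxide and hands the electrons to NAD and FAD for the respiratory chain. Its enzymes are encoded in the nucleus and imported into mitochondria. In skeletal muscle they are most abundant in oxidative fibres, and citrate synthase activity is a common measure of how much mitochondrial matrix a muscle contains. The diaphragm contracts throughout life and is among the more oxidative muscles of the mouse.

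Values below are signals, MAS5 intensities on a linear scale rescaled to the same trimmed mean on every array. Differences are given as dystrophic minus normal in log2(signal + 16), with the standard error (SE) and Benjamini-Hochberg adjusted p from limma over 13575 tested probe sets. The threshold was an adjusted p under 0.05. Lama2, the gene of the deficient laminin chain, was lower in the dystrophic pools, at 232 to 333 against 749 to 982 in normal pools. Its log2 difference was -1.60 (SE 0.15), with a limma adjusted p of 8.91e-04. Of 10 skeletal muscle genes in a list of defining markers, 9 had a probe set with 1 symbol, and all 9 passed the filter on low values. The median signal per array lay between 172 and 207. Normal replicate 4 had been deposited at a trimmed mean of 400.2, against 500.2 on the other 7 arrays, and it stood at one end of the first principal component (36.1). Dystrophic replicate 3 stood at the other end (-34.0), and its liver markers summed to 48429, against at most 5795 in the other dystrophic pools and 3320.1 in normal pools. Normal replicate 4 also had the highest 3′/5′ signal ratios of the control probe sets, at 0.937 for Gapdh and 1.07 for actin, against 0.729 to 0.861 and 0.833 to 0.971 on the other arrays. Its 18S ribosomal signal was the lowest, at 63.4 against 117 to 763. The part of these quality measures in the results was not tested. The differences of all 9 genes are given with and without both arrays.

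No TCA cycle gene passed the test. All 16 probe sets lay above the low-value filter, at the 89.6 to 99.8 percentile of signal, and limma called 0 of 16, against 0.494% of all tested probe sets (0.457% higher and 0.0368% lower). The lowest adjusted p was 0.465, for Suclg1, and 1 of 16 probe sets had an unadjusted p under 0.05, against 9.72% of all (4.13% on the lower side, where that probe set lay). All 16 point estimates were below 0, as were 52.3% of all. The brightest probe set of each gene, used to represent it below, gave log2 differences between -0.39 and -0.028 with a median of -0.18, beside a median of -0.0076 over all represented genes. In the fit to all arrays, the 95% intervals of the 9 genes reached down to 0.563-fold and up to 1.22-fold. Larger changes than these lay outside every interval of that fit, but not of every fit. For Idh2 the upper limit of the log2 difference was 0.28 with all arrays. It was 0.40 without normal replicate 4 and dystrophic replicate 3. In whole muscle, a change in fibre content and a change in RNA per fibre cannot be told apart. The 9 tested skeletal muscle genes had a median of -0.12, with 8 below 0, and limma called 0. That median was -0.049 without normal replicate 4 and dystrophic replicate 3, and 0.022 under quantile normalization.

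**Figure D1:**
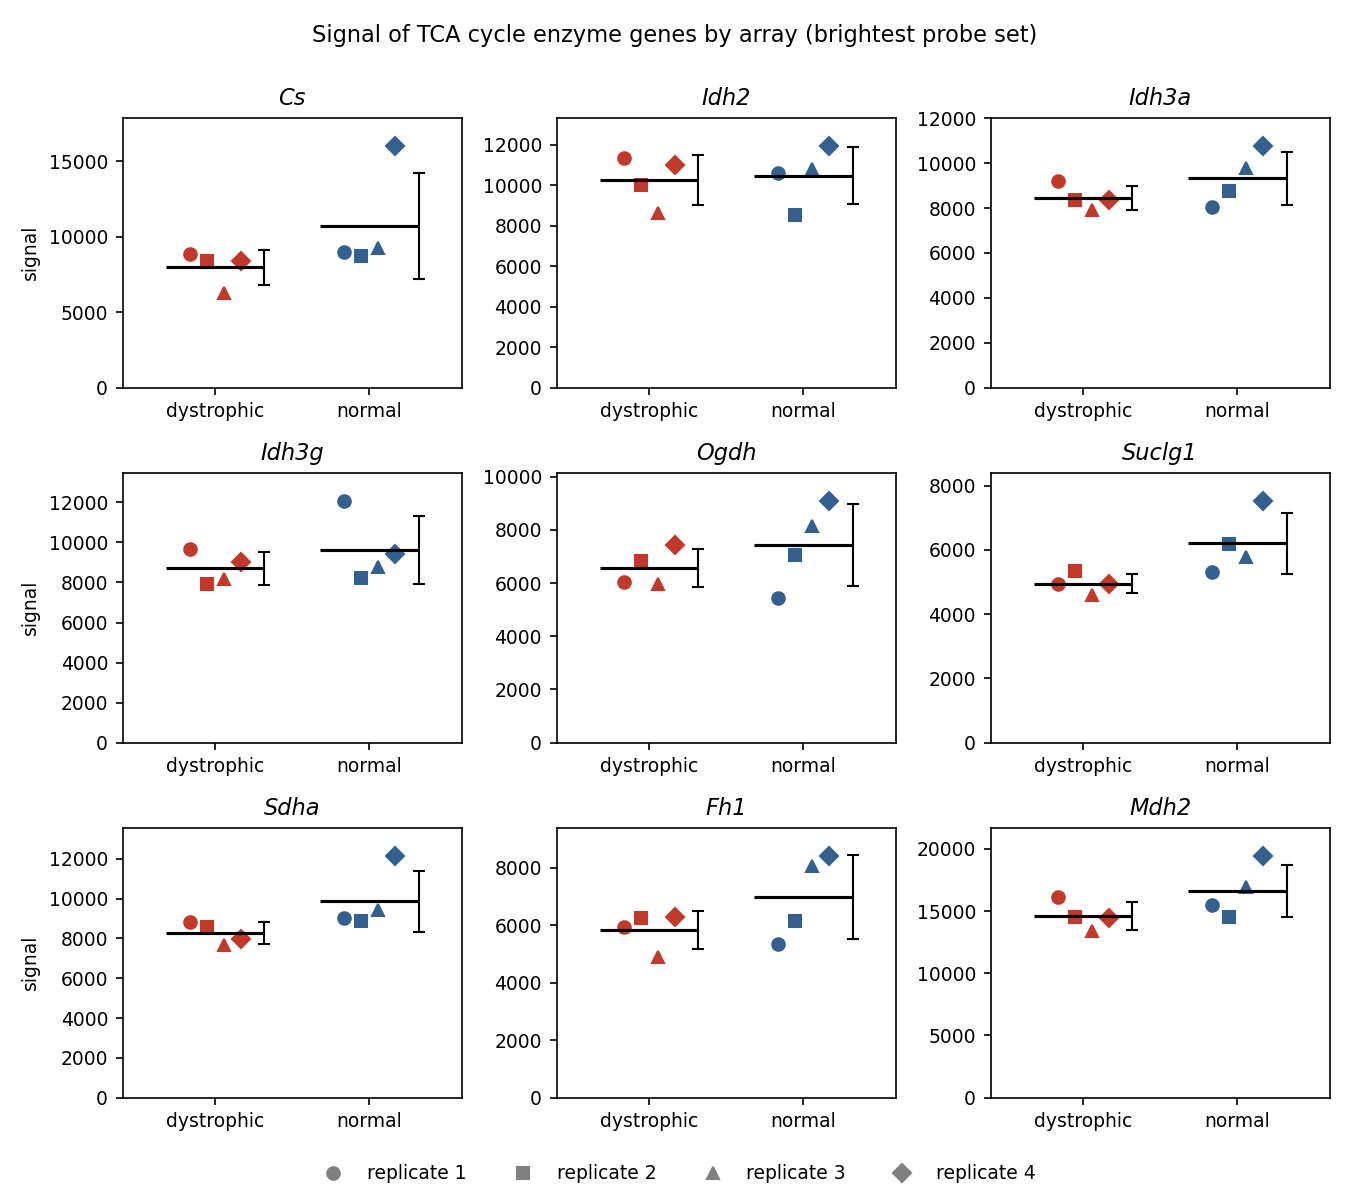
Signal (rescaled MAS5 intensity, linear axis from 0) of the brightest probe set of each of the 9 genes in 4 dystrophic pools (red, left) and 4 normal pools (blue, right). Marker shapes give the replicate number, horizontal lines the group mean and bars 1 SD. Normal replicate 4, the blue diamond, is the highest array in 8 of 9 panels, and dystrophic replicate 3, the red triangle, is the lowest in 6.

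Cs encodes citrate synthase, which joins acetyl-CoA to oxaloacetate at the entry of the cycle. Its brightest probe set had signals of 8879, 8407, 6252 and 8382 in the dystrophic pools and 9006, 8728, 9239.5 and 15994 in the normal pools. Normal replicate 4 stood far above every other array and dystrophic replicate 3 below every other, while dystrophic replicate 1 lay between the normal pools, so the groups overlapped. The log2 difference was -0.39 (SE 0.20, limma adjusted p = 0.563), the furthest from 0 of the 9 genes. It was -0.18 without normal replicate 4, -0.28 without dystrophic replicate 3 and -0.072 without both (95% interval -0.30 to 0.16).

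The other Cs probe sets gave smaller differences. 1450667_a_at had 8014 to 8655 in dystrophic pools and 7536 to 13794 in normal pools, at a log2 difference of -0.22 (SE 0.17), or -0.054 without normal replicate 4. 1422577_at had 5537 to 6669 in dystrophic pools and 6194 to 9393 in normal pools, at -0.29 (SE 0.15), or -0.18 without that array. Dystrophic replicate 3 was lowest in the brightest Cs probe set and had the highest dystrophic signal, 6669, in 1422577_at, so the probe sets of this gene disagree on that array.

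Isocitrate is oxidised by enzymes of different cofactor use. Idh2 encodes the mitochondrial NADP-dependent isocitrate dehydrogenase, which also supplies NADPH to the matrix. Its 1 probe set had 11366, 10016, 8617 and 11024 in dystrophic pools and 10628, 8518, 10821 and 11916 in normal pools. The groups interleaved, with the lowest signal in a normal pool, and the log2 difference was -0.028 (SE 0.14, limma adjusted p = 0.973). Its 95% interval in the fit to all arrays was 0.792-fold to 1.22-fold. The estimate was above 0 without normal replicate 4 (0.038), without dystrophic replicate 3 (0.053) and without both (0.12). The upper 95% limit of the log2 difference was 0.28 with all arrays, and 0.33, 0.38 and 0.40 in the same order.

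Idh3a and Idh3g encode the catalytic α and a regulatory γ subunit of the NAD-dependent isocitrate dehydrogenase, the enzyme of the cycle itself. The brightest Idh3a probe set had 9215, 8343, 7934 and 8341 in dystrophic pools and 8051, 8758, 9783 and 10743 in normal pools, with -0.14 as the log2 difference (SE 0.12, limma adjusted p = 0.788). The groups overlapped, since normal replicate 1 lay below 3 dystrophic pools. The difference was -0.065 without normal replicate 4, -0.20 without normal replicate 1 and -0.035 without normal replicate 4 and dystrophic replicate 3. The dimmest Idh3a probe set, 1422500_at, did not overlap between groups, at 1163, 1301, 1343 and 1179.8 in dystrophic pools and 1382, 1425, 1412 and 1701 in normal pools. Its log2 difference was -0.24 (SE 0.12, limma adjusted p = 0.552), and it was -0.17 without normal replicate 4 and -0.21 without both arrays. The remaining one, 1422501_s_at, lay at -0.19 (SE 0.13), or -0.083 without normal replicate 4. Its suffix marks probes that may match more than one transcript.

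The brightest Idh3g probe set had 9687, 7937, 8154 and 9041 in dystrophic pools and 12048, 8206, 8769 and 9439 in normal pools. Here the highest array was normal replicate 1, not replicate 4, and the groups overlapped. The log2 difference was -0.13 (SE 0.14), and -0.11 without normal replicate 4 and dystrophic replicate 3. It was -0.019 without normal replicate 1 and -0.20 without normal replicate 2. The other Idh3g probe set gave -0.16 (SE 0.13), and there too the highest signal, 8869.5, was that of normal replicate 1.

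Ogdh encodes the E1 subunit of the oxoglutarate dehydrogenase complex, which releases the second carbon dioxide of the cycle. It had 6025, 6821, 5960.4 and 7449 in dystrophic pools and 5446, 7075, 8145 and 9071 in normal pools. The normal pools spanned the whole range, with replicate 1 the lowest and replicate 4 the highest of all 8 arrays. The log2 difference was -0.16 (SE 0.16, limma adjusted p = 0.816). It was -0.056 without normal replicate 4, -0.30 without normal replicate 1 and -0.012 without normal replicate 4 and dystrophic replicate 3.

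Suclg1 encodes the α subunit of succinyl-CoA ligase, which makes ATP or GTP directly from succinyl-CoA. It had 4938, 5343, 4589.9 and 4946 in dystrophic pools and 5320.3, 6189, 5791 and 7509.9 in normal pools. Of the dystrophic pools 3 lay below all normal pools, and dystrophic replicate 2 was above normal replicate 1, so the groups touched. The means were 4954 ± 308 in dystrophic and 6203 ± 941 in normal pools (SD, n = 4 each), a log2 difference of -0.31 (SE 0.13). In the fit to all 8 arrays, Suclg1 was the one gene of the 9 whose 95% interval left out 0 (-0.60 to -0.028). The Cs interval left out 0 as well under quantile normalization (-0.56 to -0.012) and with the replicate number as a block (-0.78 to -0.0055). Suclg1 did not pass the correction over 13575 probe sets (limma adjusted p = 0.465). Its interval held 0 without normal replicate 4 (-0.46 to 0.023) and without dystrophic replicate 3 (-0.60 to 0.047). Its difference was -0.22 without normal replicate 4 and -0.18 without both.

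Sdha encodes the flavoprotein of succinate dehydrogenase, which is both a TCA cycle enzyme and complex II of the respiratory chain. Its brightest probe set had 8843, 8588, 7658 and 7945 in dystrophic pools and 9033, 8859, 9437 and 12114 in normal pools. All 4 dystrophic pools lay below all 4 normal pools, though by little: the highest dystrophic pool was at 8843 and the lowest normal pool at 8859. The log2 difference was -0.25 (SE 0.13, limma adjusted p = 0.583), with -0.14 without normal replicate 4 and -0.11 without that array and dystrophic replicate 3. The other Sdha probe set, 1426689_s_at, overlapped between groups, at 6520.5 to 9258 in dystrophic and 8527 to 13319.9 in normal pools, with a difference of -0.31 (SE 0.17), or -0.16 without normal replicate 4. Sdha and Idh3a thus supplied the 2 of 16 probe sets whose groups did not overlap, both lower in dystrophic pools, a property of 2.53% of tested probe sets.

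Fh1 encodes fumarase, which hydrates fumarate to malate. It had 5929, 6238, 4891 and 6285 in dystrophic pools and 5344, 6157, 8050.1 and 8396 in normal pools. The normal pools formed a low pair, replicates 1 and 2, within the dystrophic range, and a high pair, replicates 3 and 4, above it. The log2 difference was -0.24 (SE 0.16, limma adjusted p = 0.691). It was -0.14 without normal replicate 4, -0.16 without dystrophic replicate 3 and -0.063 without both.

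Mdh2 encodes mitochondrial malate dehydrogenase, which regenerates oxaloacetate and closes the cycle. Its brightest probe set had 16132, 14549, 13431 and 14424 in dystrophic pools and 15513, 14556, 16935 and 19395 in normal pools. Dystrophic replicate 1 lay above normal replicates 1 and 2, so the groups overlapped. The log2 difference was -0.18 (SE 0.13, limma adjusted p = 0.715), and the other probe set gave -0.18 (SE 0.14). Without normal replicate 4 they were at -0.099 and -0.094, and without that array and dystrophic replicate 3 at -0.059 and -0.034. Under quantile normalization the brightest probe set was at 0.0013.

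**Figure D2:**
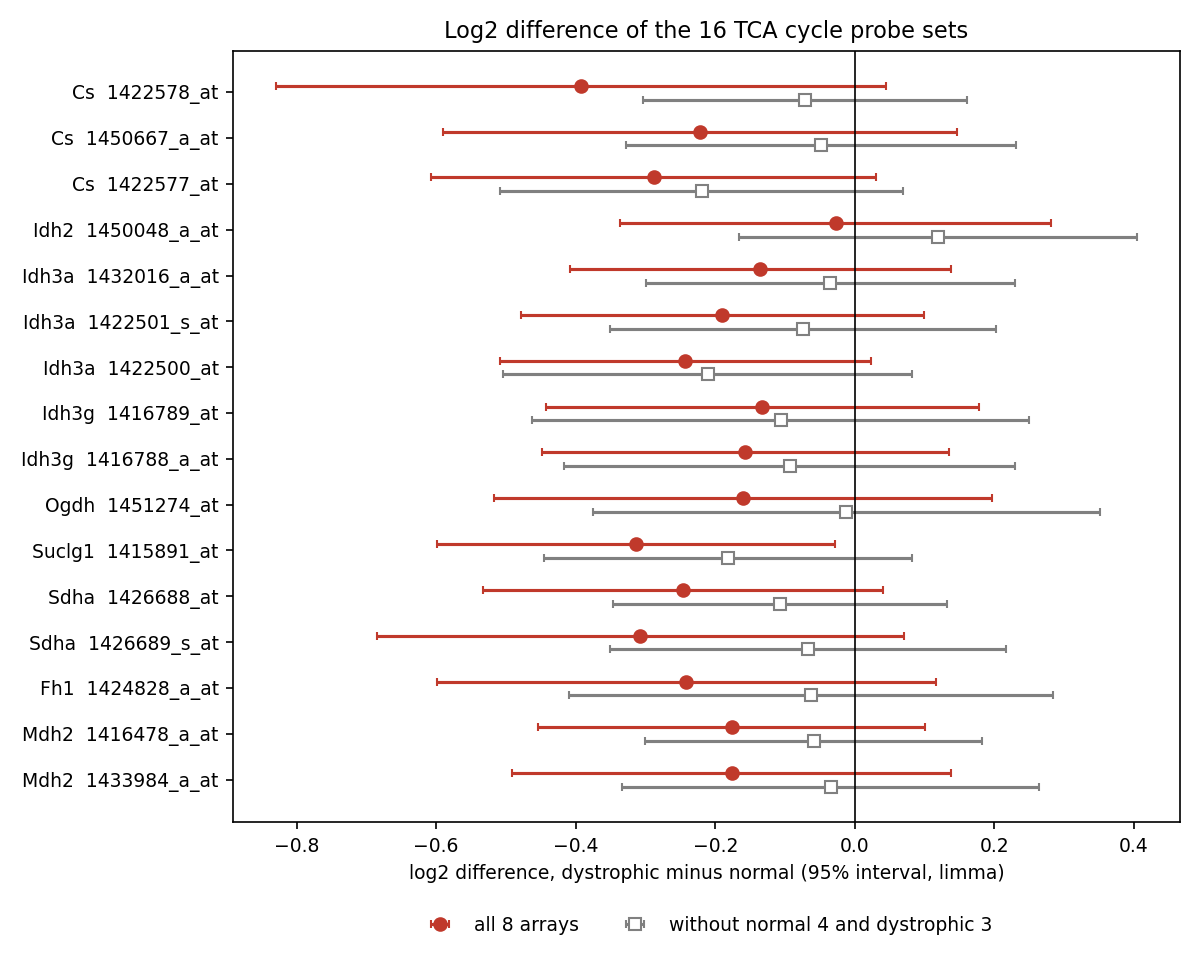
Log2 difference (dystrophic minus normal, x axis) of each of the 16 probe sets with its 95% interval from limma, for all 8 arrays (filled circles) and without normal replicate 4 and dystrophic replicate 3 (open squares). All 16 circles lie left of 0, and 1 interval, that of Suclg1, leaves out 0. Most squares lie closer to 0 than their circles, and that of Idh2 lies at 0.12.

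Most of the members varied together from array to array. The mean log2 value of the 9 genes was 13.05, 13.00, 12.80 and 13.02 in dystrophic pools and 13.03, 13.02, 13.19 and 13.44 in normal pools. The averages were 12.97 ± 0.11 in dystrophic and 13.17 ± 0.20 in normal pools (SD, n = 4 each). Normal replicates 1 and 2 fell among the dystrophic pools, while normal replicates 3 and 4 lay above all dystrophic pools and dystrophic replicate 3 below all other arrays. Normal replicate 4 was the highest array for 14 of 16 probe sets, and dystrophic replicate 3 the lowest for 9. The SD was larger in normal than in dystrophic pools for 9 of 9 genes. The median coefficient of variation was 9.31% in dystrophic pools and 15.4% in normal pools, or 9.83% in normal pools without replicate 4.

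**Figure D3:**
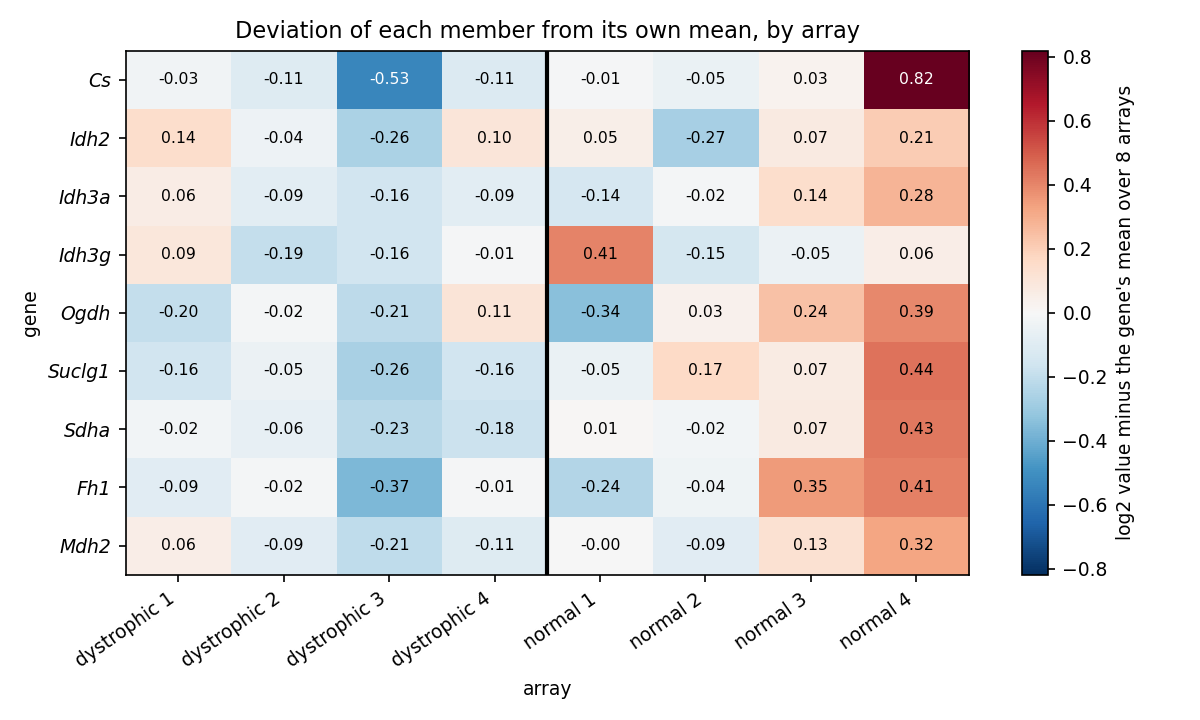
Log2 value of each gene on each array minus that gene's mean over the 8 arrays (colour and number), dystrophic arrays left of the black line and normal arrays right of it. The column of normal replicate 4 is positive for all 9 genes, from 0.06 in Idh3g to 0.82 in Cs, and that of dystrophic replicate 3 is negative for all 9, from -0.53 in Cs to -0.16 in Idh3a and Idh3g. Idh3g departs from the other rows at normal replicate 1, at 0.41.

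Bright probe sets in general shared this pattern. The 482 other probe sets at least as bright as the dimmest of the 9 representatives were, at the median, 0.35 higher on the log2 scale in normal replicate 4 than in the other normal arrays, and the 9 genes were 0.38 higher. Over all tested probe sets that median was -0.036. The log2 difference of the 482 was below 0 for 354 of them (73.4%), with a median of -0.12, and limma called 1. With normal replicate 4 and dystrophic replicate 3 left out, the median was -0.063 for the 9 genes and -0.0072 for these bright probe sets. Under quantile normalization it was -0.10 for the 9 genes and -0.0081 for the bright probe sets. The part of array-wide brightness in the members' differences was not tested beyond these values. Within sets of arrays with similar signal of the poly-A spike-in controls, the median of the 9 genes was 0.056 in the pair of replicates numbered 1, -0.33 in the pair numbered 3, which holds dystrophic replicate 3, and -0.21 in the 2 against 2 arrays numbered 2 and 4, which hold normal replicate 4.

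Likeness within the group was uneven. As a description over 8 arrays that share these array-wide shifts, the log2 values of Mdh2, Cs, Sdha and Idh3a followed the mean of the other 8 genes with Pearson r of 0.954, 0.954, 0.941 and 0.900. Fh1 and Suclg1 followed at 0.855 and 0.832, Ogdh at 0.685 and Idh2 at 0.648. Idh3g followed least, at 0.134. Outside the members, the genes whose pattern over the 8 arrays was most like the mean of the 9 were, of 8205 represented genes, Acadl, Cntnap4, Pygm, Ldhb and Kcnj8.

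Acadl encodes a long-chain acyl-CoA dehydrogenase of mitochondrial fatty acid oxidation (Pearson r = 0.979, Spearman rho = 0.929, 8 arrays). Its signals were 8244 to 10195 in dystrophic pools and 9809.5 to 13722 in normal pools. Pygm, muscle glycogen phosphorylase (r = 0.976, rho = 0.905), and Ldhb, the lactate dehydrogenase subunit of oxidative tissues (r = 0.973, rho = 0.976), are also bright enzyme genes of muscle. Cntnap4 (r = 0.978, rho = 0.714), a neuronal adhesion gene, was dim, at 106 to 128 in dystrophic pools and 130 to 174 in normal pools. Kcnj8, a pore subunit of ATP-sensitive potassium channels (r = 0.972, rho = 0.905), was highest in normal replicate 4, at 997, and lowest in dystrophic replicate 3, at 398. None of the 5 passed the test (limma adjusted p between 0.597 and 0.720).

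The sequences before the starts of the members were searched for letters recognised by regulators of nuclear genes for mitochondria. The part of such regulators in the members' pattern over the arrays was not tested. RefSeq promoter windows of GRCm38.p6, from 250 bases before to 50 after the annotated start, were matched for 8 of the 9 genes, with several windows for Ogdh. Idh3a was not matched. The motifs, searched on both strands, were GCGC, any 2 bases and GCGC for NRF1, CCGGAAG for the ETS factor GABP and AAGGTCA for oestrogen-related receptors. They do not overlap each other in the windows shown. Each was found in 1 of the 8 genes, beside 6.99%, 9.92% and 5.39% of all 26994 genes with a window, in the same order. A match is a description of letters, not a binding site. The 3 windows below show the gene with most matches, the gene least like the others and the gene with the largest estimate, with matched letters in capitals.
Sdha, chr13:74350191-74350490, minus strand: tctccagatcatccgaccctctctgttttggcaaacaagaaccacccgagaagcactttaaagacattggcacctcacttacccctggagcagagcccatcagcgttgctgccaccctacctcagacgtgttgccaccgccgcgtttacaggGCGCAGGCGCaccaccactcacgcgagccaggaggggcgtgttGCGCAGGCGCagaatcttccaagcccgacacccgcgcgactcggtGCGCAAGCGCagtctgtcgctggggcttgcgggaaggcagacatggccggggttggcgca
Idh3g, chrX:73786848-73787147, minus strand: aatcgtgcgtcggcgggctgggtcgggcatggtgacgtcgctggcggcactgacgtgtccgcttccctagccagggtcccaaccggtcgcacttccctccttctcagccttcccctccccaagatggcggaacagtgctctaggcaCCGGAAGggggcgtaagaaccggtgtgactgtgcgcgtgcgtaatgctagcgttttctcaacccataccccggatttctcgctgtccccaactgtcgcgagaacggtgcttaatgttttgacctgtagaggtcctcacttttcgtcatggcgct
Cs, chr10:128337477-128337776, plus strand: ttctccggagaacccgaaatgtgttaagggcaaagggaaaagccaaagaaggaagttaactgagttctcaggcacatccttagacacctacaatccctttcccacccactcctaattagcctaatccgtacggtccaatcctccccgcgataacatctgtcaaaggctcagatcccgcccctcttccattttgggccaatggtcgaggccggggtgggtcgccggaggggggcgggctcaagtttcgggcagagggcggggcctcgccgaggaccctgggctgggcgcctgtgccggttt

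The Sdha window held 3 NRF1 matches, which begin 98, 55 and 10 bases before the annotated start, and none of the other motifs. The Idh3g window held 1 GABP match, which begins 104 bases before the start. The Cs window held none of these motifs. The third motif, for oestrogen-related receptors, was found in 1 of the Ogdh windows. The GC box GGGCGG, bound by SP1 family factors, was found in 5 of the 8 genes, Cs among them, and in 38.2% of all genes with a window.

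No gene of the rest of the cycle passed the test either. Of 9 other enzymes and subunits in a list, 8 had a probe set with 1 symbol, and all 8 were tested. None passed (limma called 0 of 8, against 0.494% of all tested probe sets, lowest adjusted p = 0.509). An unadjusted p under 0.05 was reached by 1, against 9.72% of all. All 8 estimates were below 0, beside 52.3% of all tested probe sets and 73.4% of the bright ones. The median was -0.26, or -0.15 without normal replicate 4 and -0.13 without that array and dystrophic replicate 3. Sucla2, the β subunit of the ATP-forming succinyl-CoA ligase and so a partner of Suclg1, had 5328 to 6803 in dystrophic and 6604 to 9674 in normal pools, a log2 difference of -0.32 (SE 0.14). Suclg2, the β subunit of the GTP-forming enzyme, was at -0.30 (SE 0.14), with 746 to 940 in dystrophic and 918 to 1237 in normal pools.

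Idh3b, the β subunit of the NAD-dependent isocitrate dehydrogenase, was at -0.29 (SE 0.13), with 3280.1 to 3606 in dystrophic pools, 3309 in normal replicate 1 and 4501 to 4652 in the other normal pools. Among the subunits of complex II, Sdhb, the iron-sulphur subunit, was at -0.31 (SE 0.20) and had 12407 to 15437 in dystrophic pools and 12958 to 26961 in normal pools, the highest again in replicate 4. Sdhc and Sdhd, its membrane anchors, were at -0.19 (SE 0.14) and -0.14 (SE 0.18). Dlst and Dld, the E2 and E3 subunits that work with Ogdh, were at -0.17 (SE 0.13) and -0.22 (SE 0.20).

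Genes that feed the cycle with pyruvate had a median of -0.27 over 5 tested genes. This median was -0.27 without normal replicate 4 and -0.19 without that array and dystrophic replicate 3. Limma called 0, and 2 were at an unadjusted p under 0.05, against 9.72% of all tested probe sets. Dlat, the E2 subunit of pyruvate dehydrogenase, was at -0.40 (SE 0.16, limma adjusted p = 0.458) and Pdha1, its E1 α subunit, at -0.38 (SE 0.16, limma adjusted p = 0.462). For Dlat 2 dystrophic pools lay below all normal pools, and for Pdha1 3 did. Mpc1, of the mitochondrial pyruvate carrier, was at -0.27 (SE 0.14), Pdhb, the E1 β subunit, at -0.15 (SE 0.13), and Pcx, the carboxylase that makes oxaloacetate from pyruvate, at -0.15 (SE 0.20). Pcx ran against the members on one array: its lowest signal, 638, was that of normal replicate 4. The kinases that switch pyruvate dehydrogenase off were tested for 3 genes, and limma called 0, with 0 at an unadjusted p under 0.05. Pdk4, induced by fasting and fat use, was at -0.38 (SE 0.20), Pdk2 at -0.20 (SE 0.12) and Pdk1 at -0.055 (SE 0.14). The median of these 3 was -0.20, or -0.23 without normal replicate 4 and -0.14 without that array and dystrophic replicate 3. Pdk3 was too dim to be tested, at 12.8 to 93.3 in dystrophic and 14.3 to 66.0 in normal pools.

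Among 11 tested enzymes and carriers that link the cycle to the cytosol, limma called 0 and 3 had an unadjusted p under 0.05, against 9.72% of all tested probe sets. These 3, named after their values were seen, were Me1 (-0.73) and Acly (-0.48), below 0, and Pck2 (0.60), above it. The median of the 11 was -0.17, or -0.091 without normal replicate 4 and -0.079 without that array and dystrophic replicate 3, and 8 lay below 0. Outside the cycle, 13 tested regulators of mitochondrial biogenesis had a median of -0.078, or -0.12 without both arrays, and limma called 0, with none reaching an unadjusted p under 0.05. Mitochondrial pore, import and chaperone genes had a median of -0.22 over 15 tested, or -0.13 without normal replicate 4 and -0.094 without both arrays. Of the 15, 14 lay below 0, beside 52.3% of all tested probe sets and 73.4% of the bright ones. Limma called 0 of these, and 4 had an unadjusted p under 0.05, against 9.72% of all.

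**Figure D4:**
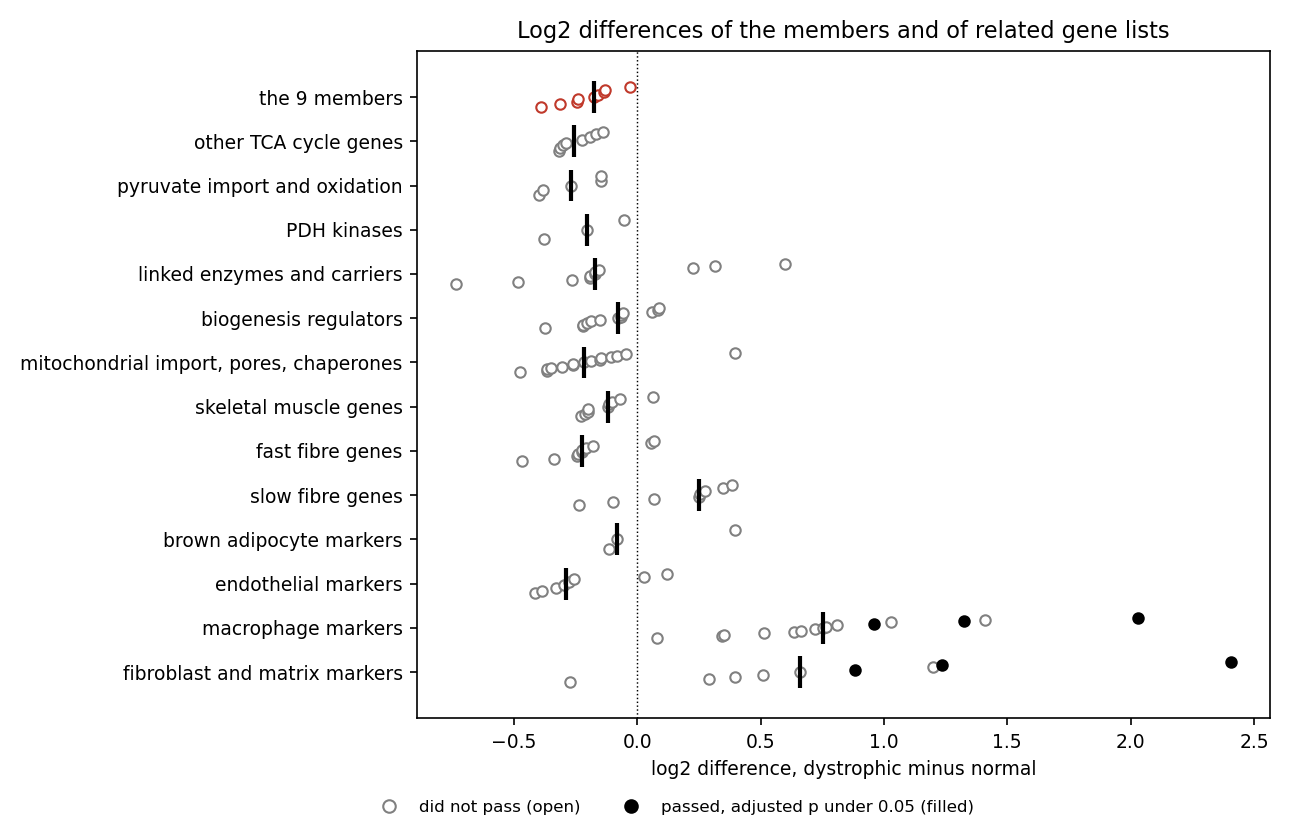
Log2 difference (dystrophic minus normal, x axis) of every tested gene of the 9 members (top row) and of related lists, each gene by its brightest probe set. Vertical bars are list medians, filled points passed at an adjusted p under 0.05 and open points did not. The 9 members, with a median of -0.18, and the other TCA cycle genes, with a median of -0.26, hold only open points, while filled points appear among macrophage and fibroblast markers, on the right.

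Some markers of interstitial cells and of regenerating fibres passed the test, against 0.457% of all tested probe sets called higher. Macrophage and leukocyte markers rose for 3 of 15 tested genes (Cd68, Mpeg1 and Ctss), and 15 of 15 lay above 0, with summed signals of 14144 to 16848 in dystrophic and 8193 to 11267 in normal pools. Fibroblast and matrix markers rose for 3 of 9 (Col1a2, Lum and Postn), while 8 of 9 lay above 0 and 1 below, at -0.27. Their sums were 41719 to 53475 in dystrophic and 27908 to 34637 in normal pools. Neither range of sums overlaps between the groups. Gene by gene, the groups did not overlap for 9 of 15 macrophage and 4 of 9 fibroblast markers. The share of all tested probe sets without overlap was taken for the lower direction only, at 2.53%. Without dystrophic replicate 3, limma called 2 of 15 and 2 of 9. Regenerating fibre genes rose for 7 of 8 (Myh3, Myl4, Myh8, Tnnt2, Myog, Ncam1 and Chrna1), with sums of 4925 to 7865 in dystrophic and 1624 to 1686 in normal pools. Limma called 5 of 8 without normal replicate 4 and 4 of 7 tested without dystrophic replicate 3. The part of these shifts in the members' estimates was not tested. Endothelial markers had a median of -0.29 over 8 tested genes, or -0.22 without normal replicate 4 and dystrophic replicate 3. Their sums were 4627 to 6138 in dystrophic pools, lowest in dystrophic replicate 3, and 6365 to 6789 in normal pools. Limma called 0 of these, and 3 had an unadjusted p under 0.05, against 9.72% of all tested probe sets. The fast fibre median was -0.23, or -0.11 without normal replicate 4, -0.093 without both arrays and -0.021 under quantile normalization. The slow fibre median was 0.25, and 0.20, 0.21 and 0.32 in the same order. In the fit to all 8 arrays, limma called 0 of 10 and 0 of 8, and 1 gene in each list had an unadjusted p under 0.05. The sum over the fast fibre list, like the members, was highest in normal replicate 4, at 247801 against at most 188789 on any other array.

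Brown fat, a tissue rich in TCA cycle enzymes, was followed through 5 markers with a probe set, of which 3 were tested. Limma called none of these 3, and none had an unadjusted p under 0.05. Of their log2 differences, 2 were below 0 and 1 above, with a median of -0.083. That median was -0.035 without normal replicate 4, 0.065 without that array and dystrophic replicate 3, and 0.071 under quantile normalization. Ucp1, the defining gene of brown adipocytes, was too dim to be tested, at 7.90 to 25.7 in dystrophic pools and 22.4, 51.1, 203 and 153 in normal pools. The Ucp1 signals above 100 stood in normal replicates 3 and 4, the arrays with the highest mean of the members. The sum over the 5 markers was highest in normal replicate 4, at 21040, and lowest in dystrophic replicate 3, at 13432. It reached 20337 in another dystrophic pool, against at most 18890 in normal replicates 1 to 3. The part of brown fat in the mean of the members was not tested. Liver transcripts were highest in dystrophic replicate 3, the array with the lowest mean of the members. Albumin, encoded by Alb, was at 18039 there and at 905 to 3245 in the other dystrophic pools, against 521 to 1347 in normal pools. The part of this liver signal in the low TCA cycle signals of that array was not tested. With that array alone left out, the median of the 9 genes was -0.14.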

How the data were processed

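Affymetrix arrays measured RNA of 4 dystrophic and 4 normal diaphragm pools. The values are linear intensities that the authors deposited in 1 table, made with MAS5 per the submitters' processing notes, with no version stated. Signals were multiplied per array so that the 2% trimmed mean of each became 487.7. Controls and the dimmest 40% of probe sets were left out, and limma 3.58.1 in R 4.3.3 compared groups on log2(signal + 16), with an intensity trend and Benjamini-Hochberg adjustment over 13575 probe sets. The fit was tested on simulated data. Symbols come from the platform annotation, updated through Entrez identifiers (20351 matched) with RefSeq for GRCm38.p6. A gene is represented by its brightest probe set.

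The 9 genes, the lists and the alternatives were chosen with earlier results of these data known, and the probe sets of the 9 genes were then taken by annotation alone. The named genes are Lama2 as a check of the labels, every member probe set, every tested gene of the cycle, pyruvate entry and its kinases, list genes past the threshold, and the 5 genes most like the members. Pdk3, Ucp1, Alb, Me1, Acly, Pck2 and the bright probe sets were added after their values were seen. Pools are separate mice, so replicates are biological, and 4 arrays per group limit the precision. Figures used matplotlib 3.10.9.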

Additional observations from a re-analysis of the deposited data

Results flagged for a closer look

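Of 32 groups of 4 arrays (16 probe sets in 2 groups), 2 held an array whose gap to its nearest neighbour exceeded Dixon's 95% limit as a share of the group's range, which chance passes in about 1 group in 20. Both were normal replicate 4. For the Cs probe set 1422578_at it had a signal of 15994, with the next normal array at 9239.5 and the lowest at 8728 (gap 0.930 of the range). For the Idh3a probe set 1422500_at it had 1701, with the next at 1425 and the lowest at 1382 (gap 0.865 of the range).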

How the results depend on the processing

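No TCA cycle probe set was called under any alternative (offsets of 1 and 64, values as deposited, quantile normalization, an upper-quartile shift, no filter, the lowest 60% left out, no intensity trend, robust hyperparameters, array weights, both blocks, each array left out, normal replicate 4 and dystrophic replicate 3 left out together, and the 2 against 2 arrays alone); the lowest adjusted p in each ranged between 0.313 and 0.783. With each array left out in turn the count was 0 throughout, the median of the 9 genes lay between -0.28 and -0.14, and that of the other TCA cycle genes between -0.32 and -0.15. The median of the 9 moved beyond the spread between replicates within the spike-in pair of replicates 3 (-0.33) and of replicates 1 (0.056), and that of the other TCA cycle genes within the pair of replicates 1 (-0.053). Idh2 lay between -0.12 and 0.053 with 1 array left out. It was positive as deposited (0.053), under quantile normalization (0.086) and array weights (0.038), without dystrophic replicate 3 (0.053), normal replicate 4 (0.038) or both (0.12), and in the 2 against 2 arrays (0.061). Mdh2 was positive under quantile normalization (0.0013). In the pair of replicates 1, Idh2 (0.097), Idh3a (0.19), Ogdh (0.15), Fh1 (0.15) and Mdh2 (0.056) were positive. The cause was not tested. Same-numbered arrays correlated in their deviations at 0.48, -0.046, 0.15 and 0.13, and the main fit did not pair the pools by number. The spike-in signal did group by number, at 588 and 543 in replicates 1 and 307 and 354 in replicates 3. It was 125 to 172 in the arrays numbered 2 and 4. With the replicate block limma called 105 probe sets in all, against 67, and 0 of the 16. With the spike-in sets as a block it called 114, with array weights 127, and 25 to 61 with 1 array left out.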
